A study of Mus musculus with 2 samples.

Results

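The genes described here encode the enzymes that make and use glutathione, the thioredoxin and peroxiredoxin enzymes, the superoxide and peroxide scavengers, the superoxide-producing NADPH oxidase, and the aldehyde dehydrogenases. They were taken by symbol, and 85 genes matched, on 88 of the 34456 rows of the table, out of 34295 genes in all. The match itself used no values, but the set was chosen with earlier results of these data known. The study compared 2 cultures of wild-type C57BL/6J mouse cells, with 1 poly(A) RNA library each. The first was of embryonic fibroblasts (MEF), grown from E13.5 to E14.4 embryos freed of head and red tissue, sorted to remove cells bearing CD45, CD11b or F4/80, used at passage 4 to 7 in DMEM with 10% serum, and collected from 100000 cells. The second was of bone marrow derived macrophages (BMDM), differentiated for 6 days in RPMI with 10% serum and 30% L929-conditioned medium, and collected from 750000 cells. Neither culture carried a transgene, deletion or drug treatment in the labels, and whether either came from pooled animals is not given in the sources used here.

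Values are transcripts per 1000000 (TPM), which are corrected for transcript length and can be set side by side between genes. They summed to 999545 in MEF and 999609 in BMDM, and they hold no count of reads, so depth is unknown. With 1 library per group there was no replicate check, no error and no test, and cell type cannot be told apart from medium, cell number and preparation. In bulk RNA, fewer cells of a type and less RNA per cell cannot be told apart either. A call of higher in MEF or higher in BMDM needed a 4-fold difference in TPM plus 1 and 5 TPM or more on the higher side. Log2 ratios are of TPM plus 1, MEF over BMDM, and folds given in words divide the TPM directly, with nothing added.

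Marker genes matched the labelled cell types. Of 22 macrophage markers, 21 were higher in BMDM, and their summed level was 54.4 TPM in MEF and 39213 TPM in BMDM. Of 20 fibroblast markers, 18 were higher in MEF, and the remaining markers, Vim and S100a4, were abundant in both libraries. The 18 macrophage markers at 100 TPM or more in BMDM appeared in MEF at a median of 0.105% of that level, with a range of 0.0384% to 0.441%. Neutrophil markers summed to 2.87 TPM in MEF and 511 TPM in BMDM, with 6 of 13 higher in BMDM. S100a9 and S100a8, which monocytes also express, were the highest of them, listed at 0 and at 1.85 TPM in MEF and at 268 and 157 TPM in BMDM, while the defining marker Ly6g was listed at 0 in both. The neutrophil granule genes Ngp, Ltf, Mmp8 and Camp, named after their values were seen, were the other markers called higher in BMDM, at 0, 0, 0.279 and 0 TPM in MEF and at 48.3, 12.0, 7.83 and 5.17 TPM in BMDM. None of the erythroid, lymphocyte, hepatocyte and epithelial markers was called, 2 of 8 skeletal muscle markers were higher in MEF, and 1 of 8 adipocyte and 1 of 8 endothelial markers was higher in BMDM.

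Glutathione is a small thiol made in a pair of steps by glutamate-cysteine ligase and glutathione synthetase and kept reduced by glutathione reductase. Glutathione peroxidases spend it on peroxides, and glutathione transferases join it to reactive chemicals and lipid products. Thioredoxin and the peroxiredoxins form a parallel system fed by thioredoxin reductase, and many genes of both systems answer to the transcription factor NRF2 through antioxidant response elements. In macrophages and neutrophils the phagocyte NADPH oxidase makes superoxide on purpose, to attack ingested microbes.

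Most of these genes were expressed, and genes past the rule were found on both sides. In 1 library or the other, 62 of the 85 genes (72.9%) reached 5 TPM, against 11191 of 34295 (32.6%) over all genes, and 44 members did so in both. These shares are of unlike sets. All 85 members are protein coding, whereas the 34295 genes were not filtered by gene type and include 14996 listed at 0 in both libraries. Of the 62, 11 were higher in MEF, where the share over all 11191 expressed genes was 14.3%. In BMDM 8 were higher, where the share over all genes was 8.77%. Together 19 of 62 (30.6%) were called, beside 23.1% of all expressed genes. The shares over all expressed genes are the background for each count of calls given below. Families and lists of a few genes can lie far from them. Leaving out the NADPH oxidase genes, a step chosen after their values were seen, 13 of 56 (23.2%) were called, 10 in MEF and 3 in BMDM. Within 2-fold of TPM plus 1 lay 25 of the 62 (40.3%), beside 6856 of 11191 expressed genes (61.3%). The median log2 ratio of the 72 members at 1 TPM or more was 0.07, beside 0.28 over all genes at that level, and its sign turned under rescaling, to -0.11 with median-of-ratios scaling. Added together, the 85 genes held 7585 TPM (0.759% of the library) in MEF and 12204 TPM (1.22%) in BMDM, a 1.61-fold higher sum in BMDM.

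**Figure D1:**
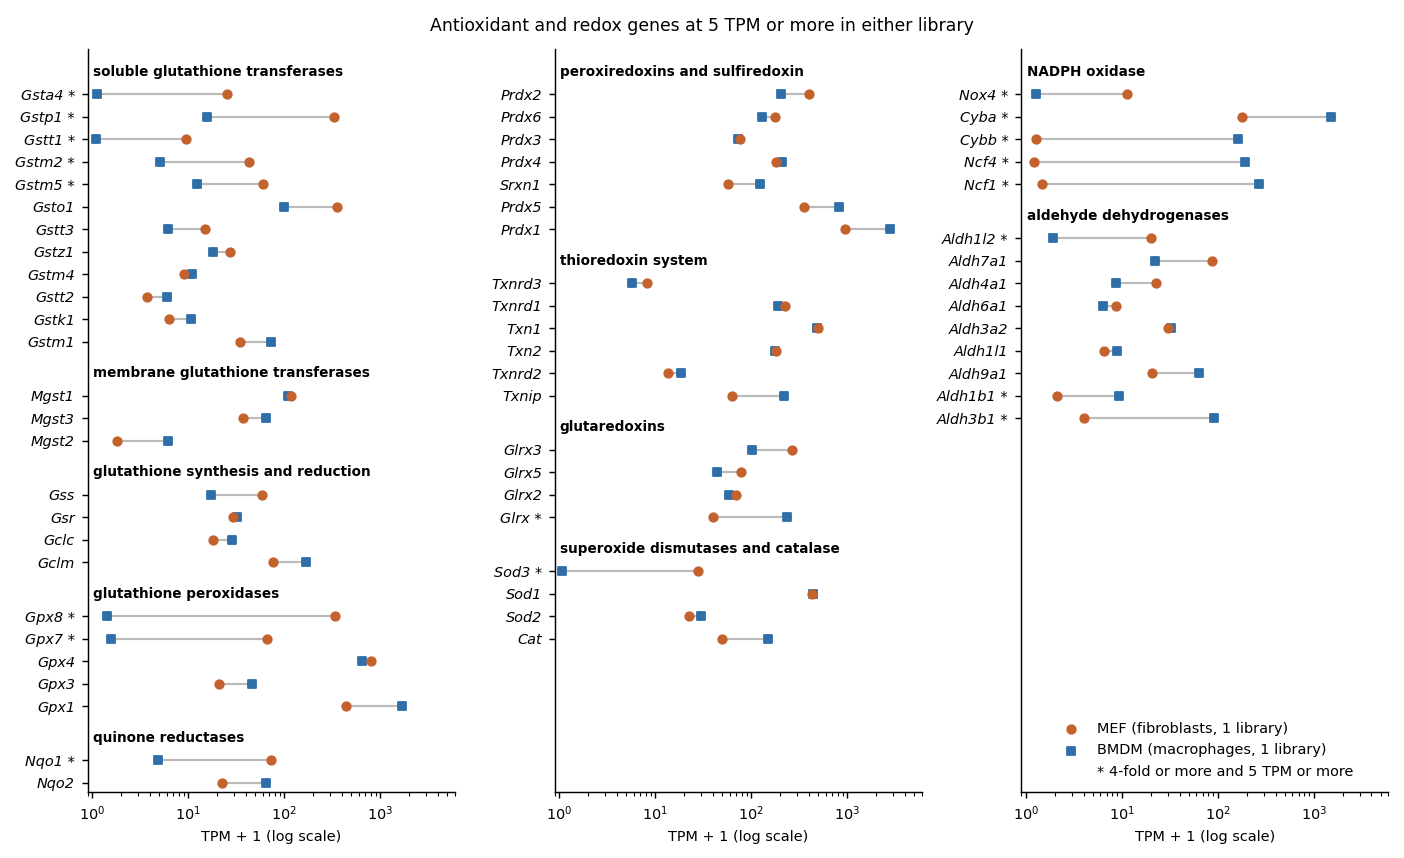
Level of the named genes at 5 TPM or more in either library, by enzyme family. The x axis is TPM + 1 on a log scale, circles are the MEF library and squares the BMDM library, 1 library each. Genes called higher in either library carry an asterisk. The thioredoxin system shows none, with Txn1 at 505 TPM in MEF and 484 TPM in BMDM, while Cybb, Ncf1 and Ncf4 lie at 0.461 TPM or less in MEF and at 160 TPM or more in BMDM.

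The promoters were searched for TGACNNNGC, a strict form of the letters that NRF2 is known to read, because this gene group holds known targets. Stretches with G in place of the C after TGA were not counted. The TGAGTCAGC that can be read further below for Gstp1, Gstp2 and Srxn1 is such a stretch. Promoter windows came from RefSeq (GRCm38.p6) for 72 of the 85 genes, 15 of them with more than 1 window, and the 250 bases before each start were searched. The antioxidant response element core TGACNNNGC, on either strand, stood in 10 of the 72 (13.9%), beside 11.5% of all 27025 genes with a window. The members holding it were Aldh1a2, Aldh9a1, Gclm, Gsta3, Gstm5, Gstm7, Mgst1, Prdx1, Sod1 and Txnrd1, of which Gstm5 was called, as higher in MEF. Stretches of 60 bases from 7 of them follow, read 5′ to 3′ on the gene's strand, with the matching letters in capitals.
Prdx1, chr4:116685439-116685498, plus strand: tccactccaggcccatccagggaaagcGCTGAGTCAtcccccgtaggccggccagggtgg
Gclm, chr3:122245397-122245456, plus strand: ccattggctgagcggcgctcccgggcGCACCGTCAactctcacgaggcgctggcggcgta
Txnrd1, chr10:82859086-82859145, plus strand: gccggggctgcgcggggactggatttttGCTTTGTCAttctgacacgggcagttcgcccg
Sod1, chr16:90220672-90220731, plus strand: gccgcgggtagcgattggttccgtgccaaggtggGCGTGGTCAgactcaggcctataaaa
Mgst1, chr6:138140437-138140496, plus strand: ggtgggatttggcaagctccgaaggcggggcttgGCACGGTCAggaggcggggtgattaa
Gstm5, chr3:107895779-107895838, plus strand: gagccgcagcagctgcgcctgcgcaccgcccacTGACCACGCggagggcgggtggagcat
Aldh9a1, chr1:167349871-167349930, plus strand: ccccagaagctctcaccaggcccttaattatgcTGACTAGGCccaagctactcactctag

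The motif of the AP-1 factors, TGANTCA, can overlap the element, and among the 10 genes it did so in Prdx1, whose capitals contain it. Of the 72 members with a window, 9 (12.5%) held TGANTCA, beside 7.82% of all genes with a window. GAGGAAGT, a strict form of the site of the myeloid factor PU.1, was searched because the oxidase genes lay together in BMDM. It was in none of the 3 oxidase subunit genes with a window (Cyba, Cybb and Ncf1) and in 2.79% of all genes with a window. At so low a share, its absence from 3 genes says nothing, and any part of PU.1 was not tested. Both of these motifs were chosen after the values were seen. A match is a description of the letters, and no binding was measured.

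The Pi class transferase genes, which stand side by side on chromosome 19 within 24.2 kb, show a pair of related promoters with unlike levels. Gstp1, which encodes the main Pi class transferase, stood at 329 TPM in MEF and 14.8 TPM in BMDM. Each is the sum of 2 rows with identical values, 165 TPM in MEF and 7.39 TPM in BMDM per row, and whether these rows are copies cannot be told from the table. Gstp2 stood at 1.52 TPM in MEF and was listed at 0 in BMDM, likewise on 2 identical rows, and Gstp3 stood at 0.0836 TPM in MEF and was listed at 0 in BMDM. The 250 bases before the RefSeq starts were 78.1% identical between Gstp1 and Gstp2, with 207 identical bases in 265 aligned columns. Between Gstp1 and Gstp3 136 of 272 columns were identical, and between Gstp2 and Gstp3 125 of 269, in global alignments. The 120 bases before each start follow, with TGANTCA in capitals where it occurs.
Gstp1, chr19:4037913-4038032, minus strand: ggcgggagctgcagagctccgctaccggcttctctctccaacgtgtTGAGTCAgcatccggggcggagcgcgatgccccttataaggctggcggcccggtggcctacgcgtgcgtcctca
Gstp2, chr19:4042222-4042341, minus strand: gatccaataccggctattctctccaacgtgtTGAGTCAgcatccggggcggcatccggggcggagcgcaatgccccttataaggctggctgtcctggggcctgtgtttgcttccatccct
Gstp3, chr19:4059448-4059567, minus strand: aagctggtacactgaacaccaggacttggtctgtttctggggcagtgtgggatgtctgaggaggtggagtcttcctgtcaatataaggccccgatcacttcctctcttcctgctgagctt
Gstp1 and Gstp2 share the stretch around the capitals, and the Gstp3 stretch does not hold the motif. Transcripts of such close copies share sequence, so the division of reads among them is uncertain.

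The soluble glutathione transferases were the family that lay most to the MEF side. The summed level of its 22 genes was 916 TPM in MEF and 251 TPM in BMDM. Of the 22, 12 reached 5 TPM, with none higher in BMDM and 7 in neither. The 5 higher in MEF made up 41.7% of the 12, beside 14.3% over all expressed genes. Besides Gstp1, with a 22.3-fold difference, these were Gsta4, Gstt1, Gstm2 and Gstm5. Gsta4, whose product has high activity toward the lipid peroxidation product 4-hydroxynonenal, stood at 24.5 TPM in MEF and 0.112 TPM in BMDM. Gstt1, a Theta class member, stood at 8.53 TPM in MEF and 0.105 TPM in BMDM. Gsta1 and Gsta2, neighbours of Gsta4 on chromosome 9, were listed at 0 in both libraries.

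The Mu class genes, 7 neighbours within 149 kb of chromosome 3 (107895821 to 108044894, GRCm38), did not move as a block. Gstm2 stood at 42.1 TPM in MEF and 4.07 TPM in BMDM, and Gstm5 at 59.0 TPM in MEF and 11.2 TPM in BMDM, so both were called higher in MEF. Gstm1 went the opposite way without passing the rule, at 33.8 TPM in MEF and 72.1 TPM in BMDM, and Gstm4 stood at 8.10 TPM in MEF and 9.89 TPM in BMDM. Gstm3, Gstm6 and Gstm7 were below 5 TPM in both. Summed over the class, the level was 147 TPM in MEF and 98.2 TPM in BMDM. These genes are close copies of one another, with the same limit on read division as above.

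The Omega class gene Gsto1, whose product reduces dehydroascorbate and other substrates, was the most abundant soluble transferase in both libraries. It stood at 355 TPM in MEF and 98.6 TPM in BMDM, a 3.60-fold difference just short of the rule. It made up 38.8% of the family's TPM in MEF and 39.3% in BMDM, whereas Gstp1 made up 35.9% in MEF and 5.89% in BMDM. The other expressed members were not called. Gstt3 had 14.2 TPM in MEF and 5.11 TPM in BMDM. Gstz1, an enzyme of tyrosine breakdown, had 26.3 TPM in MEF and 17.3 TPM in BMDM. Gstk1 had 5.30 TPM in MEF and 9.64 TPM in BMDM, and Gstt2 had 2.69 TPM in MEF and 5.05 TPM in BMDM.

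The membrane-bound transferases were at like levels in both libraries, with sums of 156 TPM in MEF and 176 TPM in BMDM and none of the 3 called. Mgst1 stood at 118 TPM in MEF and 108 TPM in BMDM, and Mgst3 at 36.6 TPM in MEF and 63.2 TPM in BMDM. Mgst2, which can also make leukotriene C4, stood at 0.815 TPM in MEF and 5.19 TPM in BMDM. Its log2 ratio of -1.77 missed the rule through the added 1, and with a pseudocount of 0.1 TPM it was -2.53. Transferase-related genes that work in eicosanoid synthesis were divided between the libraries. Alox5ap, Hpgds and Ltc4s were higher in BMDM, with 5.30, 0.109 and 0.727 TPM in MEF against 1487, 131 and 33.5 TPM in BMDM. Hpgds encodes prostaglandin D synthase, a Sigma class glutathione transferase. Ptges was higher in MEF, at 12.0 TPM in MEF and 2.05 TPM in BMDM. The list they came from held 10 genes, not all of them eicosanoid enzymes or relatives of the membrane-bound transferases. Of the 10, 9 reached 5 TPM, with 1 higher in MEF and 3 in BMDM.

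Genes that make and reduce glutathione showed no call among 4. The modifier subunit gene of glutamate-cysteine ligase, Gclm, stood at 76.2 TPM in MEF and 168 TPM in BMDM, and the catalytic subunit gene Gclc at 17.0 TPM in MEF and 27.3 TPM in BMDM. Glutathione synthetase, Gss, lay the other way, at 57.7 TPM in MEF and 16.5 TPM in BMDM. Glutathione reductase, Gsr, stood at 28.3 TPM in MEF and 31.2 TPM in BMDM. In both libraries the modifier subunit transcript was thus several-fold above that of the catalytic subunit. The first step was therefore on the BMDM side in level and the second on the MEF side, each by less than 4-fold.

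The surrounding glutathione and cysteine genes differed more by member than by direction. Of 14 genes of glutathione breakdown and export, 11 reached 5 TPM, with 3 higher in MEF and 2 in BMDM. The share called was 45.5% of the 11, beside 23.1% of all expressed genes. Toward MEF lay Chac1, a glutathione-degrading cyclotransferase, at 20.6 TPM in MEF and 3.46 TPM in BMDM, Ggt7 at 16.2 TPM in MEF and 0.203 TPM in BMDM, and the dipeptidase gene Dpep1 at 16.5 TPM in MEF and listed at 0 in BMDM. Toward BMDM lay the dipeptidase gene Dpep2, at 0.417 TPM in MEF and 153 TPM in BMDM, and the aminopeptidase gene Anpep, at 8.97 TPM in MEF and 495 TPM in BMDM. Of 9 cysteine supply genes, 7 reached 5 TPM and 2 were called, both higher in MEF. These were the neutral amino acid carrier gene Slc1a4, at 23.1 TPM in MEF and 2.98 TPM in BMDM, and the cystathionine lyase gene Cth, at 8.95 TPM in MEF and 0.312 TPM in BMDM. The cystine carrier gene Slc7a11, named after its values were seen, was low in both, at 1.56 TPM in MEF and 1.42 TPM in BMDM.

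The glutathione peroxidases differed in which member led. The endoplasmic reticulum enzymes Gpx8 and Gpx7, which use oxidative folding partners and lack selenium, were higher in MEF. Gpx8 stood at 340.1 TPM in MEF and 0.429 TPM in BMDM, a 792-fold difference, and Gpx7 at 65.2 TPM in MEF and 0.573 TPM in BMDM, a 114-fold difference. Both genes read from the minus strand in GRCm38, Gpx8 at chr13:113042753-113046410 and Gpx7 at chr4:108400390-108406961. Gpx1, the main cytosolic enzyme, stood at 437 TPM in MEF and 1681 TPM in BMDM, a 3.84-fold difference with a log2 ratio of -1.94 just short of the rule. It passed the rule as higher in BMDM under median-of-ratios scaling, at -2.12.

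The remaining peroxidases differed less. Gpx4, which reduces lipid peroxides within membranes, stood at 810.3 TPM in MEF and 654 TPM in BMDM. The secreted enzyme gene Gpx3 stood at 20.1 TPM in MEF and 45.7 TPM in BMDM. Gpx2 was listed at 0 in MEF and stood at 0.108 TPM in BMDM, and Gpx5 and Gpx6 were listed at 0 in both libraries. The make-up of the family thus differed more than its sum of 1673 TPM in MEF and 2382 TPM in BMDM. Gpx4 made up 48.4% of the sum in MEF and 27.5% in BMDM, Gpx1 26.1% in MEF and 70.6% in BMDM, and Gpx8 20.3% in MEF and 0.0180% in BMDM.

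**Figure D2:**
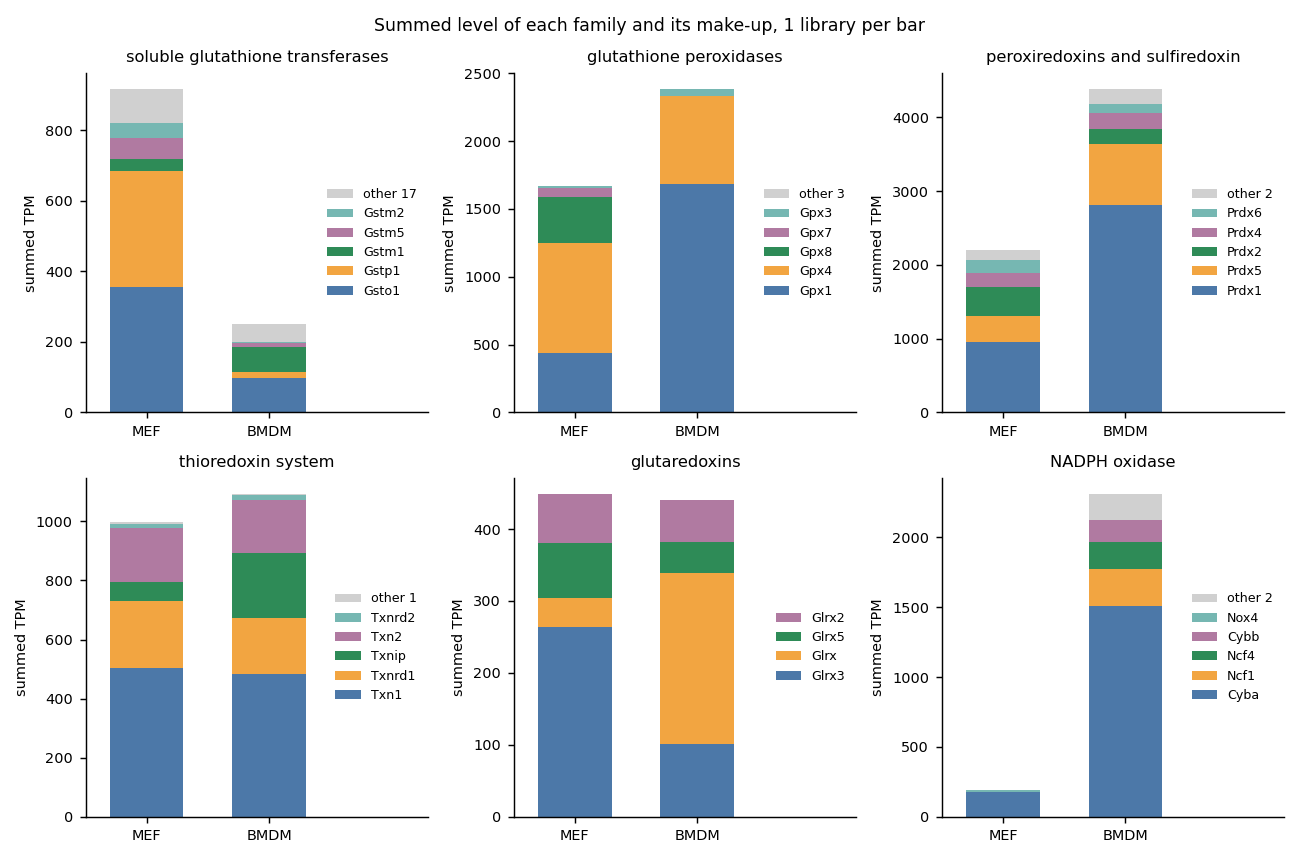
Summed TPM of 6 enzyme families on the y axis, with MEF on the left and BMDM on the right of each panel, 1 library per bar, stacked by member. Glutathione peroxidases held 1673 TPM in MEF and 2382 TPM in BMDM, with Gpx8 at 340.1 TPM in MEF and 0.429 TPM in BMDM, and the peroxiredoxins with sulfiredoxin held 2196 TPM in MEF and 4377 TPM in BMDM. The NADPH oxidase sum was 190 TPM in MEF and 2314 TPM in BMDM.

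Selenoproteins carry selenocysteine at their active site, and the annotation marks its codon in 7 of the members, Gpx1 to Gpx4 and Txnrd1 to Txnrd3. Of these, 6 reached 5 TPM and none was called, with a median log2 ratio of -0.09. Their sum was 1514 TPM in MEF and 2592 TPM in BMDM, of which Gpx1 gave 437 TPM in MEF and 1681 TPM in BMDM. All 8 listed genes of selenoprotein synthesis reached 5 TPM in both libraries and none was called. Over all expressed genes 23.1% were called, so sets as small as these can readily hold none. Of 15 further selenoprotein genes, 13 reached 5 TPM, with 2 higher in MEF and 1 in BMDM. Selenom stood at 240 TPM in MEF and 42.1 TPM in BMDM, and the thyroid hormone deiodinase gene Dio3 at 12.8 TPM in MEF and listed at 0 in BMDM. The selenium carrier gene Selenop stood at 56.1 TPM in MEF and 517 TPM in BMDM.

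The peroxiredoxins, abundant thiol peroxidases, had no called member among 6, yet their summed level was 2140 TPM in MEF and 4254 TPM in BMDM. Prdx1, a cytosolic enzyme, carried most of that difference, at 952 TPM in MEF and 2811 TPM in BMDM, a 2.95-fold difference. It was the most abundant of all 85 genes in both libraries, at rank 172 of 34295 genes in MEF and rank 36 in BMDM. Prdx5 lay the same way, at 355 TPM in MEF and 826 TPM in BMDM. Prdx2, another cytosolic enzyme, lay the opposite way at 398 TPM in MEF and 206 TPM in BMDM.

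The other peroxiredoxins were within 1.5-fold. Mitochondrial Prdx3 stood at 76.6 TPM in MEF and 72.6 TPM in BMDM. Prdx4, of the endoplasmic reticulum, stood at 183 TPM in MEF and 208 TPM in BMDM. Prdx6, which also acts on phospholipids, stood at 176 TPM in MEF and 131 TPM in BMDM. Srxn1, encoding sulfiredoxin, which repairs overoxidized peroxiredoxins, stood at 56.2 TPM in MEF and 123 TPM in BMDM and was not called.

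The promoter of Srxn1 holds TGANTCA in 2 places among the 120 bases before its start, and that of Glrx, the one glutaredoxin called, holds it in the 60 bases shown. They are printed because, with Prdx1, these genes lie on the BMDM side.
Srxn1, chr2:152105404-152105523, plus strand: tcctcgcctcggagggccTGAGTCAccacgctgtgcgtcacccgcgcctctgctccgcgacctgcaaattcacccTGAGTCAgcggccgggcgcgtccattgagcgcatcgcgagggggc
Glrx, chr13:75839755-75839814, plus strand: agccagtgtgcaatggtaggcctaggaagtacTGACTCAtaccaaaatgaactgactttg
Gstp1, which lies to the MEF side, holds the same letters. Over the called members with a window, TGANTCA stood in 2 of 8 that were higher in MEF and 2 of 6 that were higher in BMDM.

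The thioredoxin system was close to equal between the libraries. Of its 6 genes none was called, beside 23.1% of all expressed genes, and 5 lay within 1.6-fold. Txn1, cytosolic thioredoxin, stood at 505 TPM in MEF and 484 TPM in BMDM, and Txn2, the mitochondrial form, at 182 TPM in MEF and 179 TPM in BMDM. The reductase genes Txnrd1 and Txnrd3 stood at 227 and 7.19 TPM in MEF, and at 189 and 4.75 TPM in BMDM. Txnrd2, the mitochondrial reductase, stood at 12.7 TPM in MEF and 17.7 TPM in BMDM, each the sum of 2 identical rows. The exception was Txnip, an inhibitor of thioredoxin and of glucose uptake that rises with sugar supply, at 63.0 TPM in MEF and 219 TPM in BMDM, a 3.48-fold difference that did not pass the rule. Of 15 thioredoxin-like genes listed beside them, 11 reached 5 TPM and 2 were higher in MEF, Txndc5 at 426 TPM in MEF and 89.3 TPM in BMDM, and nucleoredoxin, Nxn, at 155 TPM in MEF and 1.14 TPM in BMDM.

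The glutaredoxins had almost the same sum, 449 TPM in MEF and 440.4 TPM in BMDM, with a different leading member. Glrx, the cytosolic enzyme that removes glutathione from proteins, was higher in BMDM, at 39.1 TPM in MEF and 237 TPM in BMDM. Glrx3, which handles iron-sulfur clusters in the cytosol, lay the other way without a call, at 264 TPM in MEF and 102 TPM in BMDM. The mitochondrial forms Glrx2 and Glrx5 stood at 68.4 and 77.3 TPM in MEF, and at 58.8 and 43.3 TPM in BMDM. Glrx3 made up 58.9% of the family sum in MEF and 23.1% in BMDM, and Glrx 8.70% in MEF and 53.7% in BMDM.

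Among superoxide dismutases, the secreted form alone was called. Sod3, which works in the extracellular matrix, stood at 26.8 TPM in MEF and 0.0785 TPM in BMDM, a 341-fold difference. Its annotated position is chr5:52363791-52371418, plus strand. Cytosolic Sod1 was nearly equal, at 431 TPM in MEF and 444 TPM in BMDM, with nearly equal ranks in their libraries. Mitochondrial Sod2 stood at 21.9 TPM in MEF and 29.0 TPM in BMDM. Cat, encoding peroxisomal catalase, stood at 49.0 TPM in MEF and 148 TPM in BMDM, a 3.03-fold difference that was not called.

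The members were also grouped by compartment, a grouping made after the values were seen. Of 5 members that work in the secretory pathway or outside the cell, 3 were higher in MEF (Gpx7, Gpx8 and Sod3) and none in BMDM. Gpx3 and Prdx4, the rest of this group, lay toward BMDM without a call. The 5 genes summed to 635 TPM in MEF and 254 TPM in BMDM. Over all expressed genes, 14.3% were called higher in MEF and 8.77% higher in BMDM. Of 11 members listed as mitochondrial, 10 reached 5 TPM, 1 was higher in each library, and the sums were 490.3 TPM in MEF and 423 TPM in BMDM. This listing left out members that can be placed in more than 1 compartment, such as Prdx5, at 355 TPM in MEF and 826 TPM in BMDM. The order of the mitochondrial sums and the counts of both groups therefore depend on the listing.

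The quinone reductases were split. Nqo1, an NADPH-using reductase and a standard NRF2 target, was higher in MEF, at 72.8 TPM in MEF and 3.86 TPM in BMDM, an 18.9-fold difference. Nqo2 stood at 21.6 TPM in MEF and 63.3 TPM in BMDM and was not called. Nqo1 thus lay opposite to Gclm and Srxn1, which are also known NRF2 targets.

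The NADPH oxidase genes were the family furthest to the BMDM side, and each of the 6 that reached 5 TPM was called. Cybb, which encodes the catalytic subunit gp91phox (NOX2), stood at 0.276 TPM in MEF and 160 TPM in BMDM. Its membrane partner Cyba, encoding p22phox, stood at 178 TPM in MEF and 1506 TPM in BMDM, an 8.48-fold difference. The cytosolic subunit genes included Ncf1 (p47phox), at 0.461 TPM in MEF and 269 TPM in BMDM, and Ncf4 (p40phox), at 0.228 TPM in MEF and 193 TPM in BMDM. Cybb, Ncf1 and Ncf4 were thus low in MEF, where Cyba was not, and lay between 160 and 269 TPM in BMDM. The subunit genes are not neighbours. Cybb is at chrX:9435252-9487771, minus strand, and Cyba, Ncf1 and Ncf4 are on chromosomes 8, 5 and 15.

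The MEF levels of these subunits can be set beside those of the macrophage markers in the same library. Cybb, Ncf1 and Ncf4 in MEF stood at 0.172%, 0.172% and 0.118% of their BMDM level, within the range of the macrophage markers given above. Cyba, at 11.8%, lay far above that range. Neutrophils also express this oxidase, and the neutrophil markers, as given above, summed to 2.87 TPM in MEF and 511 TPM in BMDM. Their part in the oxidase levels was not tested.

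MEF instead held Nox4, a constitutively active oxidase of fibroblasts and kidney that needs p22phox but no cytosolic subunit. It stood at 10.3 TPM in MEF and 0.277 TPM in BMDM, a 37.2-fold difference, and is annotated at chr7:87246096-87398710, plus strand. Nox1 was listed at 0 in MEF and stood at 1.22 TPM in BMDM, below the minimum. Of 12 further oxidase genes, 5 reached 5 TPM and 2 were higher in BMDM. They were Rac2, the blood cell GTPase of the oxidase, at 0.0990 TPM in MEF and 152 TPM in BMDM, and the proton channel gene Hvcn1, at 3.64 TPM in MEF and 61.6 TPM in BMDM. The general GTPase Rac1, named after its values were seen, stood at 484 TPM in MEF and 457 TPM in BMDM.

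**Figure D3:**
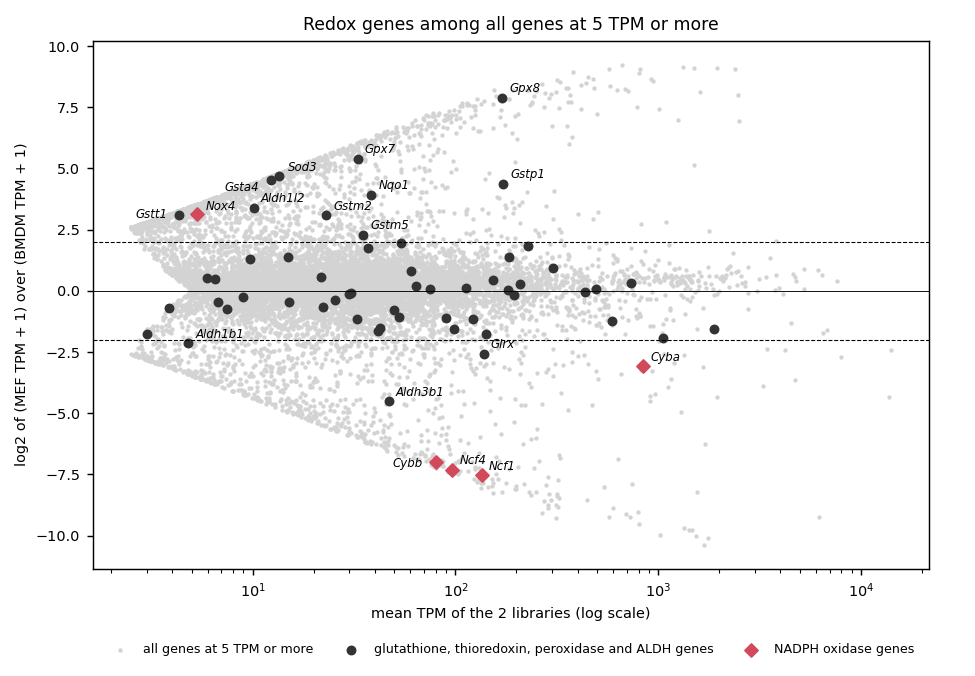
Log2 ratio of MEF over BMDM, of TPM plus 1, on the y axis against the mean TPM of the 2 libraries on a log x axis, for the 11191 genes at 5 TPM or more in either library. Dark points are the redox genes and diamonds the NADPH oxidase genes, with the reported called genes named and dashed lines at the 4-fold limit. Gpx8 is the gene furthest to the MEF side among them and Ncf1 the gene furthest to the BMDM side, and Txn1, Txn2 and Sod1 lie near the zero line.

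The aldehyde dehydrogenases oxidize aldehydes from lipid peroxides, retinal and amino acid breakdown. Of 18 genes, 9 reached 5 TPM, with 1 higher in MEF and 2 in BMDM, and the sums were 205 TPM in MEF and 239 TPM in BMDM. Aldh1l2, the mitochondrial folate enzyme that makes NADPH, was higher in MEF, at 19.3 TPM in MEF and 0.937 TPM in BMDM. Aldh3b1, which acts on lipid aldehydes, was higher in BMDM, at 3.04 TPM in MEF and 90.6 TPM in BMDM, a 29.8-fold difference. Aldh1b1, at 1.14 TPM in MEF and 8.46 TPM in BMDM, was the other, with a log2 ratio of -2.15 close to the limit, and it missed the rule with a pseudocount of 5 TPM. Aldh1l1, the cytosolic counterpart of Aldh1l2, stood at 5.51 TPM in MEF and 8.04 TPM in BMDM.

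The other expressed aldehyde dehydrogenases had no call. Aldh7a1, of lysine breakdown and the most abundant of the 18 in MEF, stood at 86.8 TPM in MEF and 21.5 TPM in BMDM. Its ratio of TPM was 4.04, but with the added 1 its log2 ratio of 1.97 stayed below the limit. Aldh9a1 stood at 19.6 TPM in MEF and 63.3 TPM in BMDM. Aldh3a2, of fatty aldehyde breakdown, stood at 29.7 TPM in MEF and 31.7 TPM in BMDM, Aldh4a1, of proline breakdown, at 21.9 TPM in MEF and 7.82 TPM in BMDM, and Aldh6a1, of valine breakdown, at 7.76 TPM in MEF and 5.33 TPM in BMDM. The retinoic acid synthesis genes Aldh1a1, Aldh1a2 and Aldh1a3 were below 5 TPM in both libraries, the highest being Aldh1a3 at 3.57 TPM in MEF and 0.607 TPM in BMDM. Aldh2, Aldh16a1 and Aldh18a1, outside the 85 genes by the form of their names, were not called either, and Aldh2 was the most abundant of them at 199 TPM in MEF and 574 TPM in BMDM.

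Genes that handle retinoids beside these dehydrogenases had 8 of 13 listed members at 5 TPM or more, with 4 higher in MEF and 1 in BMDM. The share called was 62.5% of the 8, beside 23.1% of all expressed genes. The retinoid-binding protein genes Crabp1 and Crabp2 stood at 155 and 147 TPM in MEF, against a listed 0 and 0.357 TPM in BMDM. The receptor gene Rarg stood at 77.4 TPM in MEF and 11.0 TPM in BMDM, and the retinoic acid breakdown gene Cyp26b1 at 6.59 TPM in MEF and listed at 0 in BMDM. The retinal reductase gene Dhrs3 was higher in BMDM, at 73.9 TPM in MEF and 369 TPM in BMDM.

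Altogether 23 of the 85 genes stayed below 5 TPM in both libraries, the highest at 3.57 TPM. Of these, 10 reached 1 TPM in a library, and Aldh3b2, Aldh3b3, Gpx5, Gpx6, Gsta1 and Gsta2 were listed at 0 in both. Nearest inside the call limit, a log2 ratio of 2 in either direction, lay Aldh1b1, Gstm5 and Glrx, with log2 ratios of -2.15, 2.29 and -2.57. Nearest outside lay Aldh7a1, Gpx1, Gsto1 and Txnip, with 1.97, -1.94, 1.84 and -1.78.

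The regulators and other targets of NRF2 were compared from a list set beside these genes. None of 10 regulator genes was called, with 9 at 5 TPM or more in both libraries. Sqstm1, encoding the adaptor p62, stood at 294 TPM in MEF and 728 TPM in BMDM, and Nfe2l1, a relative of NRF2, at 199 TPM in MEF and 147 TPM in BMDM. Nfe2l2, encoding NRF2 itself, and Keap1, encoding its inhibitor, were named after their values were seen. Nfe2l2 stood at 77.2 TPM in MEF and 143 TPM in BMDM, and Keap1 at 36.6 TPM in MEF and 41.0 TPM in BMDM.

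Of 18 further NRF2 targets, 17 reached 5 TPM, with 2 higher in MEF and 4 in BMDM. The epoxide hydrolase gene Ephx1 stood at 284 TPM in MEF and 9.21 TPM in BMDM, and malic enzyme, Me1, at 134 TPM in MEF and 4.73 TPM in BMDM. The ferritin genes Fth1 and Ftl1 stood at 1303 and 4451 TPM in MEF, against 26253 and 23564 TPM in BMDM. Biliverdin reductase B, Blvrb, stood at 28.4 TPM in MEF and 182 TPM in BMDM, and Osgin1 at 4.55 TPM in MEF and 24.3 TPM in BMDM. Known targets of this factor were therefore found past the rule on both sides, with Nqo1 on the MEF side. The share called was 35.3% of the 17, beside 23.1% of all expressed genes. Without regard to the rule, 12 of the 17 had the greater value in BMDM and 5 in MEF. Over all 11191 expressed genes, 4306 had the greater value in BMDM and 6885 in MEF.

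NADPH feeds glutathione reductase, thioredoxin reductase and the NADPH oxidases alike. Of 11 genes that supply it, all reached 5 TPM and Me1 alone was called, as higher in MEF. The pentose phosphate genes G6pdx and Pgd, named after their values were seen, lay toward BMDM without a call, at 50.5 and 124 TPM in MEF and 149 and 416 TPM in BMDM. Of the 4 methionine sulfoxide reductases, which mend oxidized methionine with thioredoxin, Msrb3 was higher in MEF, at 159 TPM in MEF and 0.249 TPM in BMDM, and Msra was higher in BMDM, at 8.54 TPM in MEF and 43.1 TPM in BMDM.

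**Figure D4:**
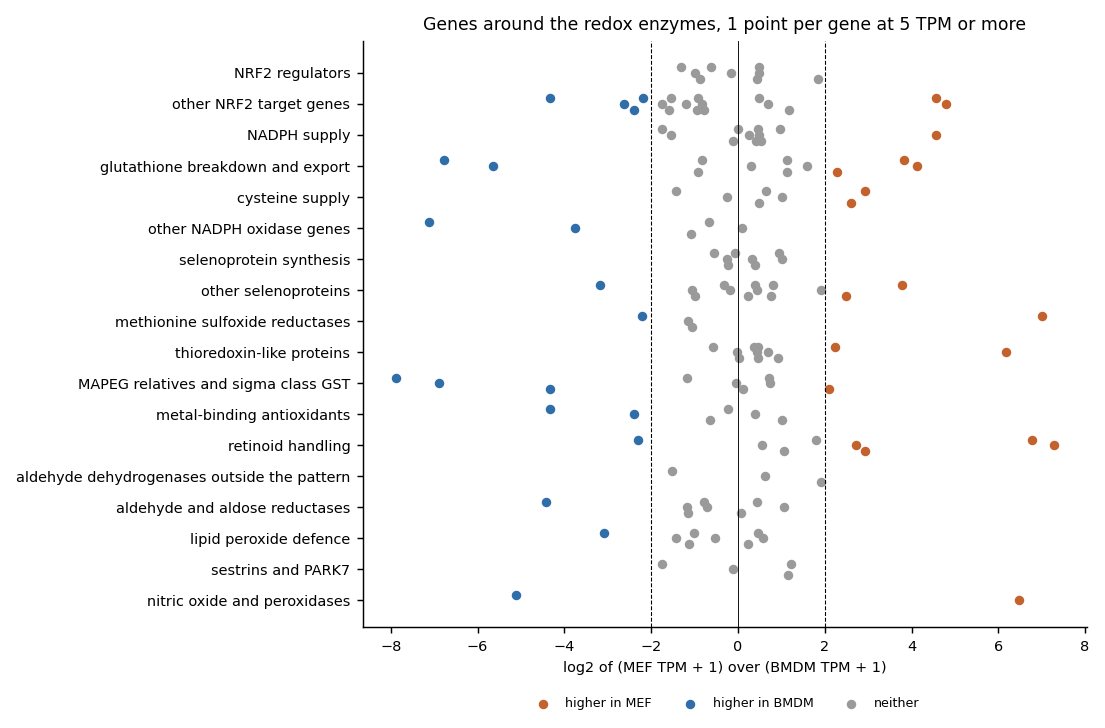
Log2 ratio of MEF over BMDM, of TPM plus 1, for the genes of 18 lists around the redox enzymes, 1 point per gene at 5 TPM or more in either library. Dashed lines mark the 4-fold limit. The selenoprotein synthesis genes and the NRF2 regulators hold no called gene, the gene furthest to the BMDM side is Alox5ap, at 5.30 TPM in MEF and 1487 TPM in BMDM, and the gene furthest to the MEF side is Crabp1, at 155 TPM in MEF and listed at 0 in BMDM.

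Other protective and oxidant-producing genes were listed as well. Of the 6 expressed metal-binding antioxidant genes, Fth1 and Ftl1 were called and the metallothionein genes were not. Of the 8 expressed aldehyde and aldose reductase genes, 1 was higher in BMDM, Akr1c13, at 1.62 TPM in MEF and 55.2 TPM in BMDM. Of the 8 expressed genes of lipid peroxide defence, 1 was higher in BMDM, Gch1, which makes tetrahydrobiopterin, at 2.21 TPM in MEF and 26.4 TPM in BMDM. None of the sestrin genes and Park7 was called, Park7 standing at 188 TPM in MEF and 205 TPM in BMDM. Of 8 nitric oxide synthase and peroxidase genes, 2 reached 5 TPM. The matrix peroxidase gene Pxdn stood at 100.4 TPM in MEF and 0.145 TPM in BMDM, and the superoxide-producing xanthine dehydrogenase gene Xdh at 1.74 TPM in MEF and 93.6 TPM in BMDM.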

How the data were processed

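RNA was made into stranded poly(A) libraries and sequenced in pairs of 76 bp reads, per the labels' protocols. The submitters' processing notes name kallisto 0.43.1 and GRCm38, and no source used here gives the transcript set, the step from transcripts to genes or any filter. The authors deposited 1 table, whose values were read as TPM because they add up to nearly 1000000 per library. Rows sharing a symbol were added, which affected 3 of the 85 genes (Gstp1, Gstp2 and Txnrd2).

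The 85 genes and all gene lists were chosen with earlier results of these data known. Every member at 5 TPM or more in either library is named, except 1 that is not reported here and enters the counts and sums alone. From each list outside the members, up to 4 called genes per direction with the highest TPM are named, or up to 2 with the highest TPM where none was called, and others are marked as named afterwards. Log2 ratios used a pseudocount of 1 TPM. No test was run, since there was 1 library per group. The call rule was run on simulated data with planted changes above the limit and an assumed noise. That run checks the calculation alone, since the real noise is unknown with 1 library per group. Coordinates and selenocysteine codons came from GENCODE M21 (GRCm38), which matched all 85 symbols, and promoter windows from RefSeq. The alternatives were pseudocounts of 0.1 and 5 TPM, minimum levels of 1 and 10 TPM and no minimum, a 2-fold limit, median-of-ratios scaling, rescaling after removal of each library's 50 highest genes and the mitochondrial genes, and the highest single row of a symbol. Python 3.11.15 with pandas 2.3.3 was used.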

Additional observations from a re-analysis of the deposited data

How the results depend on the processing

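No paired analysis was possible because each group had 1 library, and no replicate could be left out. The 11 genes called in MEF and 8 in BMDM became 17 and 20 with a 2-fold limit, and stayed between 8 and 12 in MEF and between 7 and 10 in BMDM under the other alternatives. The median log2 ratio of the 72 detected members, 0.07, was -0.11 with median-of-ratios scaling, which moved the ratio by -0.18, and -0.064 after rescaling without each library's 50 highest genes and the mitochondrial genes, which moved it by -0.13. Over all genes, 1602 calls in MEF and 981 in BMDM became 2637 and 1698 with the 2-fold limit, and 896 and 652 with a pseudocount of 5 TPM. No named member changed direction past the rule under any alternative. With a pseudocount of 5 TPM, Gstm5, Gstt1, Nox4 and Aldh1b1 lost their calls, and with a minimum of 10 TPM Gstt1 and Aldh1b1 did. Aldh7a1 and Mgst2 gained a call with a pseudocount of 0.1 TPM, Gpx1 with median-of-ratios scaling, and Gpx1 and Mgst2 after the other rescaling. The highest single row left all calls of the 62 expressed members as they were. TPM hold no depth, so no detection limit can be given, and low values and zeros are only what the table lists.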
